A study of Mus musculus with 6 samples.

Results

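Cells keep their own DNA and RNA from setting off type I interferon (IFN-I) by degrading, editing or limiting nucleic acids that innate sensors would otherwise bind. The 8 genes of this kind described here were named because inherited loss of most of them raises IFN-I without infection, as in Aicardi-Goutieres syndrome, or because they restrict retroviral DNA. They are Trex1 and Dnase2a (DNA degradation), Rnaseh2a, Rnaseh2b and Rnaseh2c (the 3 subunits of ribonuclease H2), Samhd1 (deoxynucleotide hydrolysis), Adar (RNA editing) and Apobec3 (cytidine deamination). They were 8 of 17254 genes listed in any library, and all 8 were among the 11717 genes that were tested, each with a mean FPKM (fragments assigned to a gene, scaled by transcript length and library size) of at least 1.

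The libraries came from cultured mouse neural stem and progenitor cells (NSPCs) of strain C57BL/6, which the paper describes as immortalized and derived from neonates. The paper gives their source as the subventricular zones of mice lacking Ink/Arf. This background removes cell-cycle inhibitors and is spelled Ink/Ark knockout on the labels of 2 libraries. Cells were left untreated (control), or received the oxidant paraquat (PQ, 5 µM) or the antioxidant N-acetylcysteine (NAC, 5 mM), for 48 h, with 2 libraries per group. Of the control and PQ libraries, 1 each carries labels naming column extraction, an Illumina preparation, TopHat2 and Cufflinks, and the other 4 libraries, including both NAC libraries, carry labels naming TRIZOL extraction, a BGISEQ platform, HISAT2 and RSEM. An immortalized culture without neighbouring glia or vessels stands only in part for NSPCs in the brain.

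Summed expected counts (the fractional number of fragments the depositors assigned to each gene) were 9849392 and 10040827 in the control libraries, 10388731 and 9680436 with PQ, and 10698241 and 9907726 with NAC. Values below are normalized CPM (counts scaled to a common library total, with TMM factors) unless FPKM is named, libraries are given in the order control, PQ and NAC with the Illumina-labelled library of control and PQ first, and a change was called at an adjusted p below 0.05. The labels do not say that the 2 libraries of a group came from separate cultures, so p-values measure only the spread between these libraries, which may be technical. The 3 comparisons share libraries, and their values are therefore set side by side without being counted as separate evidence.

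The nucleic acid substrates of these enzymes differ. Trex1 removes nucleotides from the ends of cytosolic DNA that cGAS would sense, and Dnase2a digests DNA inside lysosomes. Ribonuclease H2 excises ribonucleotides misincorporated during replication and degrades RNA in RNA:DNA hybrids, Samhd1 lowers the supply of deoxynucleotides, Adar converts adenosine to inosine in double-stranded RNA so that Mda5 does not bind it, and Apobec3 deaminates and blocks reverse-transcribed retroviral DNA.

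All 8 members were expressed in untreated NSPCs at moderate levels, and the order of levels ran from the ribonuclease H2 subunit Rnaseh2c down to Trex1. In control cells FPKM was 25.4 ± 4.13 for Rnaseh2c, 16.8 ± 0.00707 for Rnaseh2a, 15.1 ± 1.71 for Samhd1, 13.0 ± 1.12 for Apobec3, 11.9 ± 0.643 for Adar, 8.37 ± 0.799 for Rnaseh2b, 7.12 ± 0.559 for Dnase2a and 6.32 ± 0.170 for Trex1 (SD, n = 2). The median of the tested genes was 12.47 FPKM, so the members lay between the 29.9 and 71.2 percentiles of tested genes. Between Samhd1 and Apobec3, Apobec3 and Adar, and Rnaseh2b and Dnase2a the means differed by less than the sum of their SDs, although only the libraries of Apobec3 and Adar overlapped. With PQ Rnaseh2a went from place 2 to place 5, Apobec3 from place 4 to place 2 and Adar from place 5 to place 4. Rnaseh2b and Dnase2a exchanged places 6 and 7.

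With PQ, 1 member rose and 1 fell, against 9.76% and 9.45% of all tested genes, so the number of members that changed was close to the background. That background moved with the libraries, from 2250 genes called in either direction to 866 without the first PQ library, while the members called stayed at 2. The 2 that changed were Rnaseh2a, which fell, and Apobec3, which rose. The libraries of the 2 groups did not overlap for 4 of 8 members (Adar, Dnase2a, Rnaseh2a and Apobec3), against 57.9% of all tested genes, which again was no more than background. In bulk samples fewer cells of a type and less RNA per cell cannot be told apart.

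Rnaseh2a encodes the catalytic subunit of ribonuclease H2. Its promoter, 250 bases before to 50 bases after the annotated transcription start, is shown because this was the member with the largest change, and it holds neither the E2F letters TTTCCCGC or TTTGGCGC nor the interferon-stimulated response element (ISRE) core GAAANNGAA on either strand (RefSeq, GRCm38.p6, chr8:84966027-84966326, minus strand).

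Rnaseh2a promoter: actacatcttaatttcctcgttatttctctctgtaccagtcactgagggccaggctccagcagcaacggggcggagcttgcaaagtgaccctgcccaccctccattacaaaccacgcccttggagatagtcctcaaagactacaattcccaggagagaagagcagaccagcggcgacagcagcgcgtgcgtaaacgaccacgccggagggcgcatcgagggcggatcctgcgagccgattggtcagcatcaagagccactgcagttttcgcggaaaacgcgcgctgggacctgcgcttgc

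Rnaseh2a stood at 35.2 and 34.8 in control, 21.7 and 21.2 with PQ, and 37.8 and 39.0 with NAC. Both PQ libraries were therefore below all 4 others, while control and NAC lay close together. The mean fell from 35.0 ± 0.298 to 21.4 ± 0.338 (SD, n = 2), a log2 fold change of -0.71 (95% confidence interval -0.96 to -0.45) or 0.613-fold, with an adjusted p of 0.000505 by edgeR (quasi-likelihood F test, adjusted over all tested genes after Benjamini and Hochberg). Within the Illumina-labelled pair of libraries the log2 difference was -0.70, and within the BGISEQ-labelled pair it was -0.71, so the fall was the same size in each. Over all alternatives of the calculation it ranged from -0.721 to -0.633, with adjusted p from 9.54e-06 to 0.00953 by edgeR, DESeq2 or limma.

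Rnaseh2b and Rnaseh2c encode the other 2 subunits, which hold the catalytic subunit in place and do not cut nucleic acid themselves. Neither passed the threshold with PQ. Rnaseh2b was 13.2 and 11.4 in control, 9.07 and 12.8 with PQ, and 16.9 and 14.3 with NAC, and its PQ and control libraries overlapped (log2 fold change -0.17, 95% confidence interval -0.57 to 0.22, adjusted p of 0.580 by edgeR's quasi-likelihood test). Rnaseh2c ranged from 14.0 to 19.3 over the 6 libraries, with a log2 fold change of -0.02 (95% confidence interval -0.37 to 0.33) and an adjusted p of 0.945 by the same edgeR test. A p-value that misses the threshold does not show that these genes are unchanged, and the 2 processing labels gave opposite signs for both, at -0.54 and 0.17 for Rnaseh2b and 0.29 and -0.35 for Rnaseh2c.

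The FPKM of Rnaseh2a relative to the other subunits was lower with PQ. The ratio of Rnaseh2a to Rnaseh2c was 0.749 and 0.594 in control, 0.377 and 0.459 with PQ, and 0.664 and 0.611 with NAC, so that both PQ libraries were below the other 4. The ratio of Rnaseh2a to Rnaseh2b was 1.88 and 2.16 in control, 1.70 and 1.17 with PQ, and 1.58 and 1.93 with NAC, where PQ was below control but overlapped NAC. Whether the amount of assembled enzyme follows these transcripts was not measured.

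**Figure D1:**
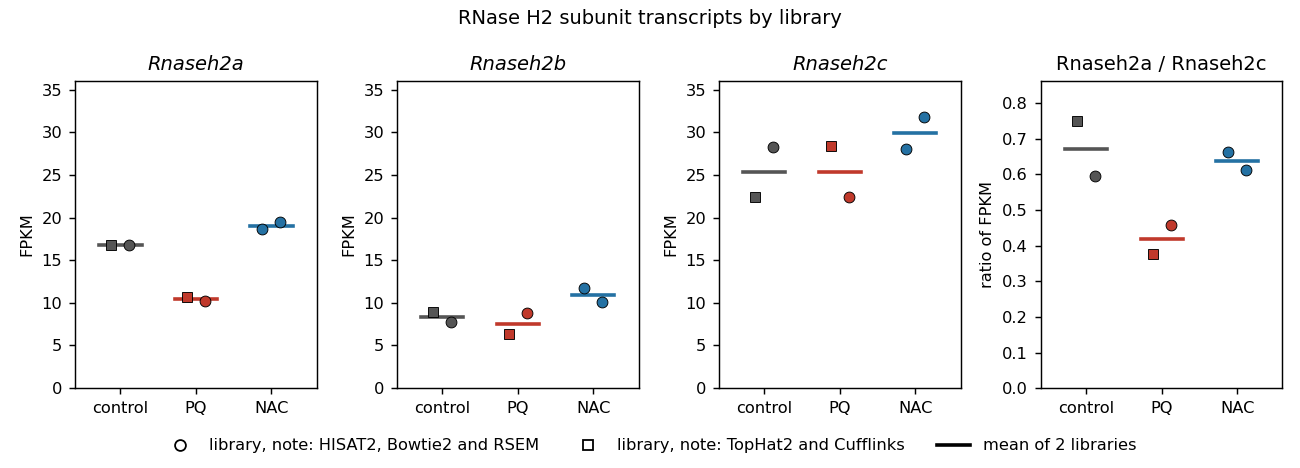
FPKM of the 3 ribonuclease H2 subunits and the ratio of Rnaseh2a to Rnaseh2c in each of the 6 libraries. The ratio was 0.377 and 0.459 in the PQ libraries and at least 0.594 in the others.

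Apobec3 encodes a cytidine deaminase packaged into retroviral particles. Of its 2 promoter windows 1 is shown, because this was the other member that changed with PQ and because the window holds 1 match to the ISRE core (the other window holds 0), TTCCCTTTC at base 112 on the opposite strand, given in capitals (RefSeq, GRCm38.p6, chr15:79892158-79892457, plus strand).

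Apobec3 promoter: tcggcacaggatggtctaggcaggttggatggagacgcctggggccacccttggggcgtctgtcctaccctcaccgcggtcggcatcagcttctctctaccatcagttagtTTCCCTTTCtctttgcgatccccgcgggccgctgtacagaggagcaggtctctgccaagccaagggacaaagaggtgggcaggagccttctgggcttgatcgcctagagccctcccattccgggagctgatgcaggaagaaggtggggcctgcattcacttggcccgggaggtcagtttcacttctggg

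Apobec3 stood at 30.3 and 33.9 in control, 45.9 and 45.8 with PQ, and 35.1 and 33.8 with NAC. Both PQ libraries were above all 4 others, and the control and NAC libraries overlapped. The mean rose from 32.1 ± 2.52 to 45.9 ± 0.0631 (SD, n = 2), a log2 fold change of 0.52 (95% confidence interval 0.28 to 0.76) or 1.43-fold, with an adjusted p of 0.00367 by edgeR's quasi-likelihood test. The log2 difference was 0.60 within the Illumina-labelled pair and 0.44 within the BGISEQ-labelled pair. It ranged over the alternatives from 0.439 to 0.599, with adjusted p from 0.000989 to 0.0406 by edgeR, DESeq2 or limma.

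Adar encodes the double-stranded RNA editing enzyme, and is transcribed from more than 1 start. Of its 3 promoter windows 1 is shown, because it holds 2 matches to the ISRE core (the other 2 windows hold 0), GAAAAGGAA at base 2 and GAAAGTGAA at base 284, given in capitals (RefSeq, GRCm38.p6, chr3:89730468-89730767, plus strand).

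Adar promoter: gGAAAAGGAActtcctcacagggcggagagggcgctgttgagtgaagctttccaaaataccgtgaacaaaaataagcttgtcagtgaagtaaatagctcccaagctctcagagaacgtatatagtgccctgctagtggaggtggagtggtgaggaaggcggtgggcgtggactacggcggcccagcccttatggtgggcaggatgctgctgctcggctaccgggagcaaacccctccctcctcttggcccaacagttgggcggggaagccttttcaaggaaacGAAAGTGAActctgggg

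Adar stood at 75.4 and 69.0 in control, 83.1 and 78.3 with PQ, and 61.8 and 65.5 with NAC. The groups did not overlap and ran in the order NAC, control, PQ, but the difference between PQ and control was small, with a log2 fold change of 0.16 (95% confidence interval -0.05 to 0.37) and an adjusted p of 0.290 by edgeR's quasi-likelihood test. Adar and Trex1 also belong to the IFN-I genes that the study displayed from these same libraries, so their values are not independent evidence of an interferon response. Trex1 was 6.66 and 6.87 in control, 8.98 and 6.79 with PQ, and 5.20 and 5.75 with NAC. Only the Illumina-labelled PQ library was above both controls, and the log2 fold change of 0.22 (95% confidence interval -0.22 to 0.67) had an adjusted p of 0.512 by edgeR. The log2 difference was 0.43 within the Illumina-labelled pair and -0.02 within the BGISEQ-labelled pair, and the fold change was 0.00486 without the first PQ library.

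Samhd1 and Dnase2a, the 2 remaining members, did not pass the threshold with PQ. Samhd1 ranged from 56.1 to 71.4 over the 6 libraries, and its PQ libraries fell between the 2 controls (log2 fold change -0.06, 95% confidence interval -0.30 to 0.18, adjusted p of 0.760 by edgeR's quasi-likelihood test). Dnase2a was 11.2 and 12.4 in control and 13.1 and 14.0 with PQ, so the groups did not overlap, with a log2 fold change of 0.19 (95% confidence interval -0.14 to 0.53) and an adjusted p of 0.451 by edgeR. The group therefore did not move in 1 direction with PQ, and the median log2 fold change of its 8 members was 0.07.

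**Figure D2:**
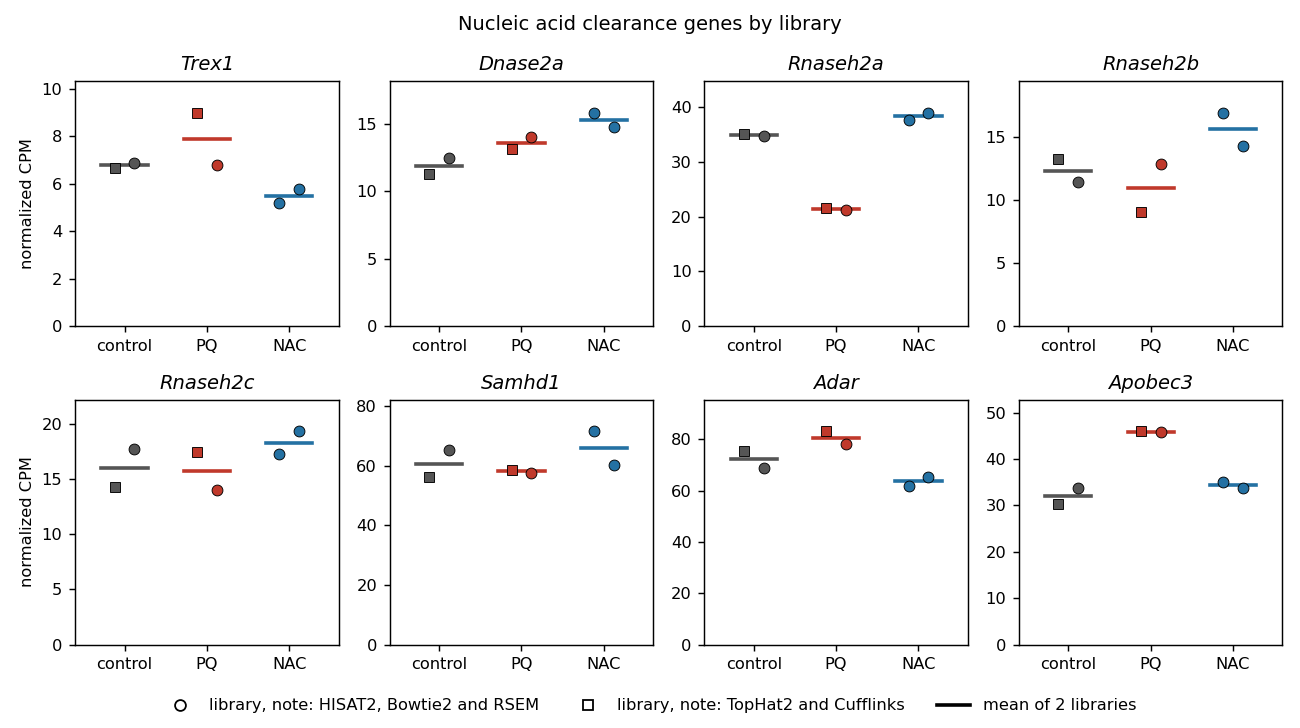
Normalized CPM of each member in each library, by treatment, with squares for libraries labelled with TopHat2, circles for those labelled with HISAT2 and bars for means. Both PQ libraries stood below all others for Rnaseh2a (21.7 and 21.2) and above all others for Apobec3 (45.9 and 45.8).

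With NAC, 0 members rose and 0 fell by edgeR's quasi-likelihood test, against 9.01% and 9.64% of all tested genes. At an unadjusted p below 0.05 there was 1 member (Dnase2a), DESeq2 called 0 and limma called 1. Dnase2a was 15.8 and 14.8 with NAC, above the 11.2 and 12.4 of control, with a log2 fold change of 0.37 (95% confidence interval 0.04 to 0.70), and an adjusted p of 0.115 by edgeR. Its adjusted p ranged from 0.0371 to 0.358 over the alternatives by edgeR, DESeq2 or limma. The difference was thus in reach of the threshold under 1 tool only, and it was 0.30 within the BGISEQ-labelled libraries. The libraries did not overlap for 5 of 8 members (Trex1, Adar, Rnaseh2a, Rnaseh2b and Dnase2a), against 56.6% of all tested genes. Rnaseh2a and Apobec3, which PQ changed, had log2 fold changes of 0.13 and 0.10 with NAC.

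Set against NAC instead of control, PQ raised 2 members and lowered 2, where 16.0% of tested genes were higher and 15.7% lower. The libraries did not overlap for 7 of 8 members, all but Rnaseh2c, against 66.5% of all tested genes. The share of 4 in 8 was above the background, but a group of 8 is small, the NAC libraries carry only the BGISEQ label, and with that label as a covariate 2 members were called, Rnaseh2a at -0.852 (adjusted p of 0.000154 by edgeR) and Apobec3 at 0.45 (0.0183). Rnaseh2a was again lower with PQ (log2 fold change -0.84, 95% confidence interval -1.09 to -0.59, adjusted p of 3.12e-05 by edgeR's quasi-likelihood test), and the value within the BGISEQ-labelled libraries was -0.86. Apobec3 was again higher, by 0.41 (95% confidence interval 0.18 to 0.65, adjusted p of 0.00898 by edgeR, ranging from 0.00359 to 0.0677 over the alternatives), and by 0.41 within the BGISEQ label. Its call ended without the first PQ library (adjusted p of 0.0573 by edgeR) or without the second NAC library (0.0677).

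The other 2 calls of that comparison were Adar and Rnaseh2b, neither of which passed the threshold against control with PQ or with NAC. Adar was higher with PQ than with NAC by 0.34 (95% confidence interval 0.13 to 0.55, adjusted p of 0.0135 by edgeR's quasi-likelihood test, ranging from 0.00616 to 0.119 over the alternatives) and by 0.30 within the BGISEQ label. The call ended with the processing label as a covariate (0.289, adjusted p of 0.0868 by edgeR), by limma on log2(FPKM + 1) (0.0522), and without the first PQ library (0.119) or the first NAC library (0.108). Rnaseh2b was lower by -0.52 (95% confidence interval -0.90 to -0.13, adjusted p of 0.0380 by edgeR, ranging from 0.0126 to 0.387 over the alternatives) and by -0.27 within the BGISEQ label. Without the first PQ library it was -0.28 with an adjusted p of 0.387 by edgeR, without the first NAC library -0.388 with 0.252, and with all libraries kept the call was also lost by DESeq2 (0.118), with the library number as a block (0.0505) and with the processing label as a covariate (0.119). Trex1 was higher with PQ by 0.53 (95% confidence interval 0.08 to 0.99), with an adjusted p of 0.0706 by edgeR that ranged from 0.0455 to 0.47 over the alternatives, and it was called only by limma (0.0495 and 0.0455 with the 2 offsets).

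**Figure D3:**
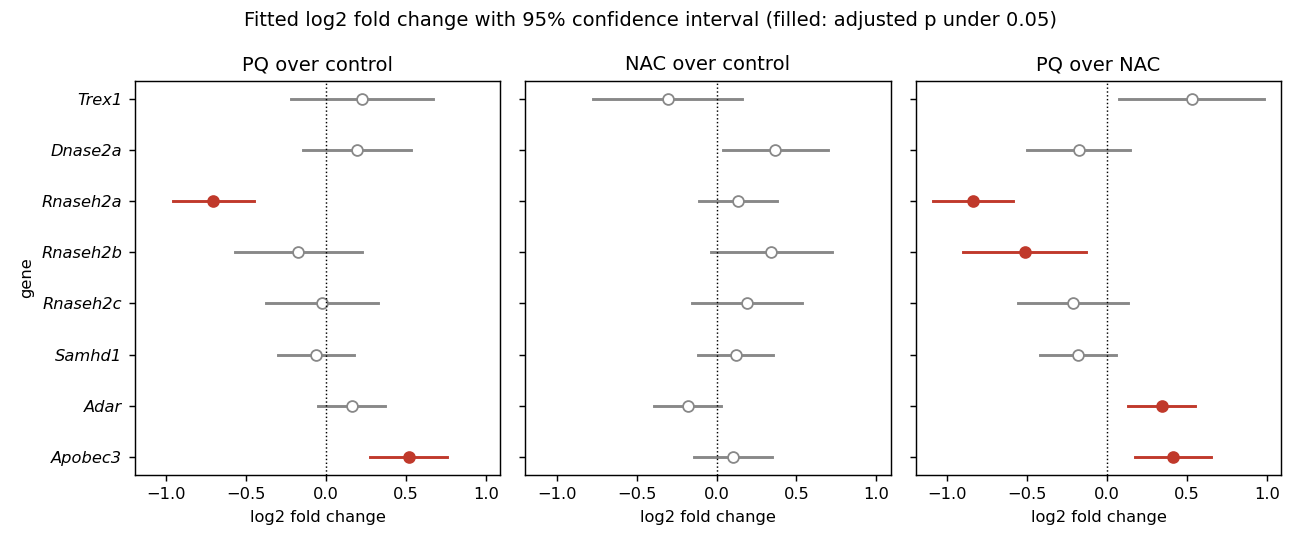
Log2 fold change of each member with its 95% confidence interval in the 3 comparisons, filled where the adjusted p by edgeR was below 0.05. Rnaseh2a (-0.71 and -0.84) and Apobec3 (0.52 and 0.41) were filled in both comparisons that include PQ.

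Genes with related functions were read in the same way, by lists written from general knowledge but chosen with earlier results of these data known. They were set beside all tested genes, whose median log2 fold change was -0.00132 with PQ and -0.00177 with NAC. Of all tested genes 9.76% were higher and 9.45% lower with PQ. Of 17 tested interferon-stimulated genes, 17 were higher with PQ and 0 lower than control, with a median log2 fold change of 1.00, led by Ifit3 (2.18 ± 0.22, standard error) with Rsad2 next. Many of these are among the genes the study itself displayed, so the list is a reference for the members and not a new result. Of 12 tested sensors and adaptors 6 were higher and 0 lower, led by Zbp1 (1.31 ± 0.32, standard error, adjusted p of 0.00693 by edgeR's quasi-likelihood test) and Ifih1 (0.89 ± 0.13, adjusted p of 0.000131). The other 6 sensors and adaptors did not pass the threshold, and 4 of the 12 were below 0. Of 15 other tested nucleases and related genes 1 was higher (Pld3, 0.73 ± 0.12) and 2 were lower (Mre11a, -0.58 ± 0.12, and Banf1, -0.48 ± 0.09), which is close to the shares of all tested genes.

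The lists concerned with DNA synthesis fell. Of 25 tested replication genes 22 were lower with PQ and 0 higher, with a median log2 fold change of -0.71, led by Mki67 (-1.13 ± 0.10, standard error) and Pold1, which fell by 1.00 ± 0.11. Of 14 tested deoxynucleotide genes 9 were lower and 0 higher, with a median of -0.46, led by Tk1 (-0.83 ± 0.12). The fall of Rnaseh2a, at -0.71, was the size of the replication median, and whether it was part of a lower rate of division or separate from it was not tested. Of 11 tested retroelement silencing genes 0 were higher and 0 lower by edgeR, with 2 at an unadjusted p below 0.05, 0 by DESeq2 and 0 by limma, and a median of -0.07.

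With NAC, where 9.01% of all tested genes were higher and 9.64% lower, several lists held calls in both directions, and counts near these shares are given as a description only. Of the interferon-stimulated genes 5 were higher, led by Ifit3 (1.10 ± 0.24, standard error), and 1 was lower (Isg20, -1.65 ± 0.34), with a median log2 fold change of 0.10. Of the sensors and adaptors 2 were higher, led by Tlr3 (0.88 ± 0.13), and 1 was lower (Dhx58, -1.41 ± 0.23). Of the replication genes 3 were higher, led by Rpa2 (0.62 ± 0.14), and 1 was lower (E2f1, -0.63 ± 0.13), with a median of 0.17. The 0.13 of Rnaseh2a with NAC was close to that median. Single genes moved in the other lists, with Rrm2b lower (-0.43 ± 0.13) among the deoxynucleotide genes, Setdb1 higher (0.38 ± 0.10) and Zc3hav1 lower (-0.51 ± 0.13) among those that silence retroelements, and Apobec1 lower (-0.35 ± 0.12) among the other nucleases.

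The same lists were counted for PQ over NAC, where 16.0% of all tested genes were higher and 15.7% lower. Higher were 16 and lower 0 of the 17 interferon-stimulated genes (median log2 fold change 1.08, against 0.000361 for all tested genes), and 5 and 2 of the 12 sensors and adaptors. Of the 25 replication genes 0 were higher and 24 lower (median -0.87), of the 14 deoxynucleotide genes 0 and 8, of the 15 other nucleases 2 and 4, and of the 11 retroelement silencing genes 0 and 2, the last of these near the background.

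**Figure D4:**
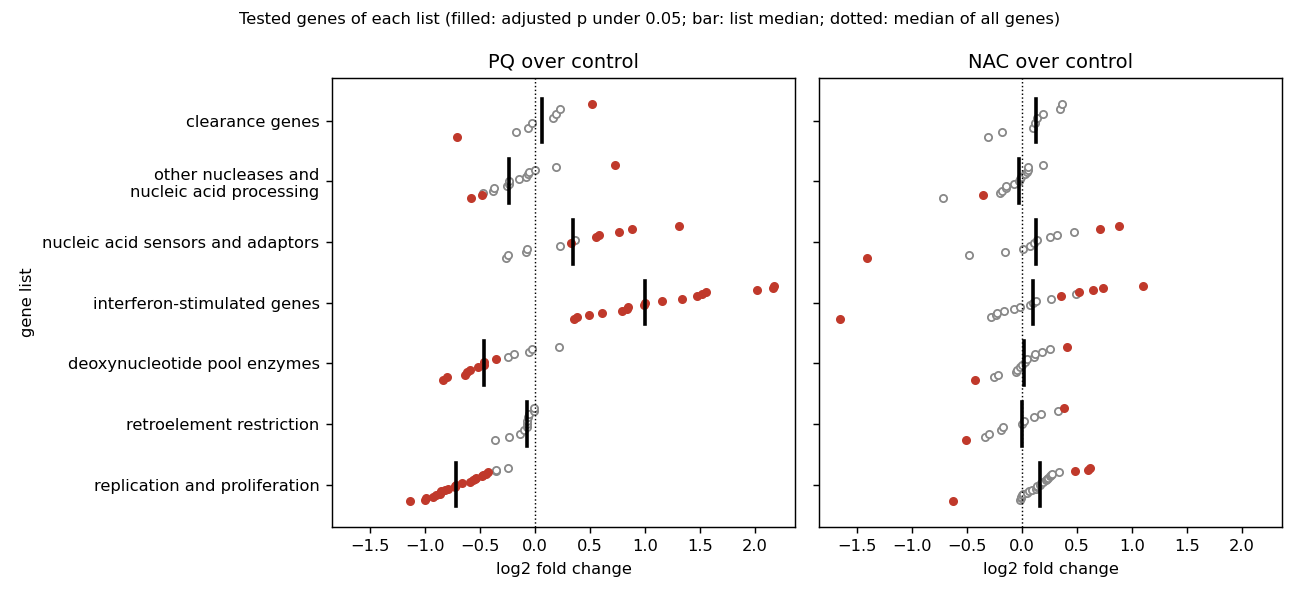
Log2 fold changes of the genes of each list with PQ over control and NAC over control. With PQ the interferon-stimulated genes had a median of 1.00 and the replication genes of -0.71, while with NAC the medians were 0.10 and 0.17.

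Across the 6 libraries, in log2 normalized CPM, the expression pattern of Rnaseh2a was shared by many genes. Its Pearson correlation exceeded 0.95 with 323 tested genes, the most of any member, and the closest were the condensin subunit Ncapg2 (r = 0.996), the replicative helicase subunit Mcm2 (0.995) and Grcc10 (0.995). The closest for Apobec3 were Ankrd17 (0.997), Mtfr1l (0.991) and Atat1 (0.991), out of 139 tested genes above 0.95. Those for Adar were Nudt7 (0.995), Cstb (0.994) and Bc1 (0.992). Those for Rnaseh2b were Prps2 (1.0), Zfp706 (0.989) and Supt3 (0.985), and for Rnaseh2c Prmt5 (0.992), Mau2 (0.988) and Igflr1 (0.985). No named gene recurred among the 3 subunits, but lists this short could hardly overlap, so no difference between subunits is read from this. Those for Samhd1 were Wdr75 (0.989), Zfp239 (0.988) and Itsn1 (0.983), and for Dnase2a Cyb5d1 (0.998), Gprasp2 (0.991) and Hbp1 (0.99). Over only 6 libraries such values are a description, and no test was attached to them.

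Marker genes showed an NSPC culture in all 6 libraries. All 10 neural progenitor markers were at 1 FPKM or more in each, summing to 3669.91 and 3758.22 in control, 4031.31 and 4039.4 with PQ and 2963.34 and 2894.6 with NAC, with Vim the most abundant in each. Of 12 microglia and macrophage markers 2 were at 1 FPKM or more, the sums were 3.2 and 3.03 in control, 5.9 and 5.25 with PQ and 5.92 and 4.76 with NAC, P2ry12 or Cd68 was the most abundant, and Tyrobp was at 0 in all 6, where 0 stands for a gene that none of the tables lists. The sums were higher with PQ and with NAC than in control, and the 2 markers at 1 FPKM or more differed in their order. Cd68 was 1.13 and 1.01 in control, 2.63 and 1.88 with PQ and 1.33 and 1.12 with NAC, highest with PQ as Apobec3 was. P2ry12 was instead highest with NAC, at 1.52 and 1.28 in control, 2.26 and 1.9 with PQ and 3.88 and 2.63 with NAC. Neither P2ry12 nor Cd68 passed the threshold with PQ by edgeR (adjusted p of 0.191 and 0.0934), and their part in the result was not tested. The 5 astrocyte markers, led by Slc1a3, summed to 110.31 and 96.61 in control, 78.1 and 79.67 with PQ and 135.38 and 134.44 with NAC, so that the sum was lowest with PQ, as Rnaseh2a was, while only 1 of the 5 passed the test as lower and 1 as higher, and its part in the result was not tested.

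The remaining lists were mostly carried by single genes. The 6 neuron markers summed to 38.43 and 36.04 in control, 33.91 and 34.81 with PQ and 65.64 and 59.46 with NAC, led by Map2, with Rbfox3, also listed in none, at 0 in all 6. The 6 oligodendrocyte lineage markers summed to 10.68 and 11.89 in control, 11.11 and 11.41 with PQ and 14.21 and 16.29 with NAC, led by Pdgfra, with Mog, listed in none, at 0 in all 6. The 6 endothelial and fibroblast markers summed to 0.67 and 0.73 in control, 2.47 and 1.5 with PQ and 1.13 and 1.34 with NAC, led over all libraries by Dcn, and none of them passed the filter. With PQ, edgeR called 1 progenitor marker higher and 2 lower and 0 of the tested microglia, neuron and oligodendrocyte lineage markers, of which 1 had an unadjusted p below 0.05, 0 were called by DESeq2 and 1 by limma. With NAC it called 0 progenitor markers higher and 3 of 10 lower, and higher were 3 of 5 astrocyte, 1 of 2 tested microglia, 1 of 1 tested neuron and 2 of 2 tested oligodendrocyte lineage markers, where 9.01% of all tested genes were higher and 9.64% lower. The tested neuron marker was Map2, whereas 2 untested markers, chosen after their values had been seen, were lower with NAC. Tubb3 was at 2.38 and 1.30 FPKM in control, 0.72 and 0.47 with PQ, and 0.32 and 0.44 with NAC. It was thus below control with PQ as well. Cspg4 of the oligodendrocyte lineage was at 0.91 and 0.92 in control, 0.92 and 0.95 with PQ, and 0.67 and 0.76 with NAC.

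The promoters of the members were searched on both strands for the same letters, in 11 windows of 7 members, since the reference held none for Rnaseh2b. The ISRE core was present in the windows of 2 of 7 members (Adar and Apobec3), against 9.76% of all genes with a window, 8.21% of tested genes and 9 of 15 interferon-stimulated genes. The E2F letters were present in 0 of 7 members, including Rnaseh2a, against 1.8% of all genes with a window, 3.67% of tested genes and 9 of 20 replication genes. Of all 32851 windows 8.56% held the ISRE core and 1.56% either form of the E2F letters. A match of letters is a description only and shows no binding.

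Neighbouring genes on the chromosome were read beside the members, with distances between the outer ends of the annotated genes. Rnaseh2a and Dnase2a lie 44.9 kb apart on chromosome 8 (GRCm38.p6) with 2 genes between them, yet only Rnaseh2a changed with PQ. Prdx2, a peroxidase gene 24 bases from the outer end of the Rnaseh2a annotation, which extends beyond the start used for the promoter above, had a log2 fold change of 0.15 with an adjusted p of 0.274 by edgeR's quasi-likelihood test. Cbx7, which overlaps Apobec3, was at -0.08 with an adjusted p of 0.817 by edgeR, whereas Cbx6, 57725 bases from Apobec3, rose by 0.35 (0.0284) with PQ and by 0.57 (0.000813) with NAC. The paper names a stranded Illumina kit, but the labels of other libraries name BGISEQ, and the strand used in counting was not given. The values of Apobec3, Adar and Rnaseh2b, which overlap another gene, may therefore include reads of that gene. The expected counts of Rnaseh2a, Samhd1 and Dnase2a were fractional in all 6 libraries, so some of their fragments had been shared out with other loci, and the part of this in their values was not tested. Shisa5, 140 bases from Trex1, rose by 0.61 with an adjusted p of 0.000661 by edgeR while Trex1 did not pass the threshold, and Atrip, 24 bases from Trex1, was at -0.12 (0.682). Beside the other members, Rbl1 near Samhd1 fell by -0.58 (adjusted p of 0.000634 by edgeR), while Ube2q1 near Adar was at 0.26 (0.0640) and Kat5 near Rnaseh2c at -0.02.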

How the data were processed

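The authors deposited one table per library with an expected count, an FPKM and a transcript length for each gene. The deposited expected counts were rounded to whole numbers and used for the edgeR and DESeq2 tests. The deposited FPKM was used for the limma tests, for the filter, for levels between genes and for marker sums. The deposited transcript length was used only to compare the tables with each other, and no value was left unused for any other reason. Libraries were grouped by the treatment on their labels. The members and the gene lists were chosen with earlier results of these data known.

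The 11717 genes whose FPKM averaged 1 or more over the 6 libraries were tested. Counts were scaled by TMM and tested with edgeR 4.0.16 (quasi-likelihood F test, spread shared over all 6 libraries) in R 4.3.3, for PQ over control, NAC over control and PQ over NAC. The p-values were adjusted over all tested genes by the Benjamini-Hochberg method, with a threshold of 0.05. Alternatives were DESeq2 1.42.0, limma 3.58.1 on log2 FPKM with 2 offsets, other filters, other scaling, the processing label or the library number as a covariate, only the 4 libraries compared, each library left out in turn, and a threshold of 0.01. From each list of related genes, genes were named from the 2 largest called rises and falls with PQ and the largest of each with NAC. The lists were other nucleases, sensors and adaptors, interferon-stimulated genes, deoxynucleotide genes, retroelement silencing genes, replication genes and the markers of 6 cell types. Likeness was a Pearson correlation of log2 normalized CPM plus 0.5. Positions and promoters came from RefSeq (GRCm38.p6), since the tables hold no coordinates and the strand of counting was not given. Figures were drawn with Python 3.11.15, pandas 2.3.3 and matplotlib 3.10.9.

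All 6 tables list the same transcripts for the 13817 genes they share and the same lengths for 10547 genes with a single transcript, although the labels of 2 libraries name another aligner and genome build than the other 4. Which of the labels describes the processing of those 2 tables was not tested.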

Additional observations from a re-analysis of the deposited data

How the results depend on the processing

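With PQ 2 members changed under every alternative that was run. With NAC, limma on log2 FPKM gave 1 member with either offset, where edgeR gave 0. For PQ over NAC the 4 members became 5 by limma with the offset 0.1 (Trex1 added), 3 by DESeq2, 2 with the processing label as covariate, 2 at a threshold of 0.01, and 1 to 4 with a library left out. The genes changed with PQ were 866 to 2206 with a library left out, fewest without the first PQ library, and 1206 at 0.01. With NAC they were 1286 to 2126 and 1292, and for PQ over NAC 2343 to 4207 and 2410. Leaving 1 library out leaves a group with 1 library, which is assumed to vary like the others.

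The sign changed for Rnaseh2b, Rnaseh2c and Samhd1. With a library left out the log2 fold change with PQ ranged from -0.44 to 0.0616 for Rnaseh2b (above 0 without the first PQ library), from -0.196 to 0.145 for Rnaseh2c (0.145 without the second control and 0.124 without the second PQ library) and from -0.164 to 0.0503 for Samhd1 (above 0 without the second control). With limma Rnaseh2c was 4.83e-05 and 2.14e-05. With NAC Samhd1 ranged from -0.00672 to 0.236 (below 0 without the first NAC library). The cause was not tested.

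The library numbers are only a hint of pairing. Among the control and PQ libraries they make the same split as the processing label, so number and label are not separate checks there. Taken as a block the library numbers gave 1798, 1804 and 3243 genes changed and 2, 0 and 3 members. Deviations from the group mean correlated between libraries of the same number at -0.0977 for control and PQ, -0.196 for control and NAC and 0.137 for PQ and NAC, so no pairing was used.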
